A study of Homo sapiens with 56 samples.

Results

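The ERBB family comprises 4 receptor genes and the genes of the ligands that bind them, and 10 of these genes were followed here across a panel of ovarian cancer cell lines. The receptors were EGFR, ERBB2, ERBB3 and ERBB4, and the ligands were EGF, TGFA, HBEGF, EREG, BTC and NRG1. The genes were chosen by name, without regard to their values, and all 10 were measured among the 18377 genes that had a probe set assigned to a single gene. Each gene was read from the probe set with the highest mean, and NRG1 was the single member with more than 1 such probe set. Expression was measured in 28 established ovarian cancer cell lines on Affymetrix Human Gene ST arrays, 56 arrays at 2 per line. DMEM was the base medium of 10 lines, RPMI of 9 and DMEM/F12 of 7, while UWB1.289 had a mixture of RPMI and MEGM and TOV112D one of MCDB105 and M199. Serum was 10% in most lines, 20% in EFO21 and OVCAR3, 5% in OV7, OV17R and OV56, and 3% in UWB1.289. Insulin was added for OAW28, OAW42, OV7, OV17R, OV56, OVCAR2, OVCAR3 and OVCAR5, hydrocortisone for OV7, OV17R and OV56, and non-essential amino acids for JHOS2, JHOS3 and JHOS4. The labels name no treatment, so each line is set against the other 27. The sources do not say if both arrays of a line stem from 1 culture, so p-values between lines reflect the spread between arrays alone, and that spread may be technical.

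ERBB receptors are tyrosine kinases of the cell surface that work in pairs. EGFR binds EGF, TGFA, HBEGF, EREG and BTC, ERBB3 and ERBB4 bind the neuregulins, ERBB4 also binds HBEGF, BTC and EREG, and ERBB2 has no ligand of its own and serves as the favoured partner of the others. ERBB3 has little kinase activity and signals mainly by recruiting PI3-kinase, and all ligands of the family are made as membrane-bound precursors that proteases release from the surface. Paired receptors drive the RAS-ERK and PI3-kinase pathways in carcinoma cells, ovarian carcinoma included.

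Levels are log2 RMA values, a scale on which 1 unit is a doubling and on which levels of different genes are not comparable, so every comparison below is within a gene across lines. A line was termed high or low for a gene where both of its arrays lay at least 1 log2 unit above or below the median of that gene over the 28 lines. Array medians ranged from 5.961 to 6.306. On 3 arrays (HEYC2 replicate 1, OV56 replicate 2 and OVCA420 replicate 1) the values were compressed, with an SD over probe sets of 1.844 to 1.893, against 2.088 to 2.324 on the other 53. These arrays did not match the second array of their own line, with r = 0.748 in HEYC2, 0.806 in OV56 and 0.615 in OVCA420, against 0.980 to 0.997 in the other 25 lines. Each of them correlated best with another compressed array, HEYC2 replicate 1 and OV56 replicate 2 with each other (r = 0.936) and OVCA420 replicate 1 with HEYC2 replicate 1 (r = 0.917). The uncompressed array of HEYC2 correlated best with HEY (0.984), that of OV56 with DOV13 (0.942) and that of OVCA420 with PEO1 (0.915). Main counts and the values of these lines are also given without the 3 arrays. The mean level over 9 markers of ovarian carcinoma cells (EPCAM, KRT7, KRT8, KRT18, KRT19, PAX8, WT1, MUC16 and MSLN) ranged from 7.29 in COLO720E to 11.69 in PEO1. KRT8 and KRT18 exceeded a log2 level of 8 in all 28 lines, KRT19 in 26, and EPCAM, KRT7 and PAX8 in 18 each. WT1, MUC16 and MSLN did so in only 4, 2 and 6 lines, with medians of 6.40, 5.58 and 7.01. The mean over 8 fibroblast markers ranged from 5.18 in OVCA432 to 7.76 in OV7, that over 4 leukocyte markers from 4.12 to 4.93, and that over 5 endothelial markers from 4.57 in TOV112D to 8.08 in TYKNU.

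All 10 genes differed between lines (limma moderated F-test, adjusted p from 1.74e-21 for ERBB4 to 3.52e-05 for EGFR), as did 65.7% of all genes tested. The spread of the family over lines was wide. The SD over the 28 line means had a median of 1.071 log2 units over the 10 genes and of 0.418 over all genes, and 8 of the 10 lay above the 90th percentile of all genes. BTC was the exception on the low side, at percentile 49.8, and EGF lay at percentile 89.8. When each line was compared with the mean of the other 27 (limma, adjusted p under 0.05 and at least 1 log2 unit), 49 of the 280 gene and line pairs (17.5%) were higher in the line, against 3.78% of all gene and line pairs, and 52 (18.57%) were lower, against 3.56%. Without the 3 compressed arrays 118 pairs were called, against 101 with them. The number of all genes that differed between lines rose as well, from 12069 to 14829. The share of all gene and line pairs called without these arrays is not given, so the rise is not shown to be particular to the family.

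**Figure D1:**
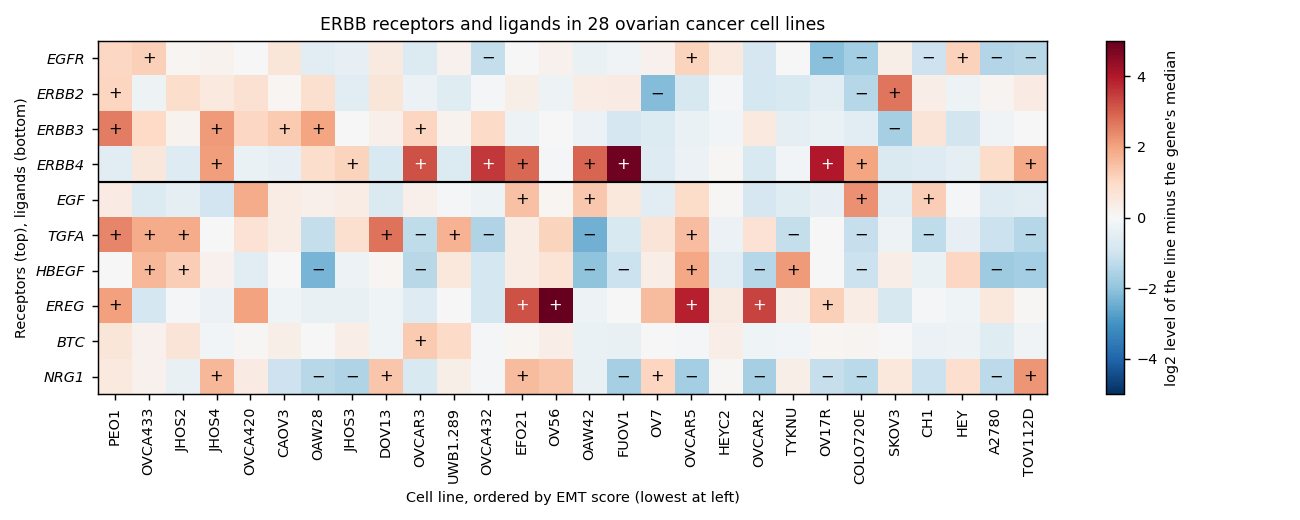
Levels of the 4 receptor genes (upper rows) and 6 ligand genes (lower rows) in 28 lines, as the log2 line mean minus the median of that gene over lines. Lines run from the lowest EMT score at the left (PEO1) to the highest at the right (TOV112D), plus and minus signs mark lines termed high or low on both arrays, and ERBB4 and EREG show the strongest colours.

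EGFR, the receptor of EGF, TGFA and their relatives, was highest in OVCA433 (9.27 and 9.33 on its 2 arrays), HEY (9.38 and 9.12), OVCAR5 (9.25 and 9.19) and PEO1 (9.40 and 8.84). It was lowest in OV17R (6.0 and 6.02), followed upwards by COLO720E (6.13 and 6.63), A2780 (6.57 and 6.70) and TOV112D (6.62 and 6.77). The median over all lines was 8.10. The difference from the other 27 lines was largest in OV17R, at -1.99 (SE 0.40, adjusted p = 0.000357), a 3.97-fold lower level. It was 1.42 in OVCA433 (adjusted p = 0.0139), 1.36 in HEY, 1.34 in OVCAR5, 1.23 in PEO1, -1.61 in COLO720E, -1.34 in A2780 and -1.29 in TOV112D. Of these 8 called lines, 7 lost the call when 1 of their own 2 arrays was left out, the exception being OV17R.

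EGFR was also the gene of the family that the 3 compressed arrays affected most. In OVCA420 it read 6.50 on the compressed array and 9.65 on the other, in HEYC2 7.52 and 9.67, and in OV56 7.44 and 9.16. The uncompressed array was the higher by more than 1 log2 unit in each of the 3 lines, and in no other line were the arrays that far apart. The SD between arrays of a line was 0.58 with the 3 arrays and 0.18 without them. Without them EGFR was called higher in 7 lines and lower in 6, against 4 and 4 with them, and HEYC2 then had the highest level (9.67). With all arrays, 27 of the 27 gaps between neighbours in the order of lines were smaller than the SD between arrays, so that the order is resolved between the ends of the range and not between neighbours.

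ERBB2 was set apart by SKOV3, a line widely used as an ERBB2 overexpressing model. SKOV3 read 10.80 and 10.83, and the next line, PEO1, read 9.19 and 9.25. The gap of 1.60 between these 2 line means was the largest in the order of lines, and 18 of the 27 gaps were below the SD between arrays of 0.13. ERBB2 in SKOV3 exceeded the other 27 lines by 2.75 (SE 0.12, adjusted p = 4.19e-18), a 6.74-fold higher level. In PEO1 the difference was 1.10 (adjusted p = 6.17e-09), and it fell just under 1 unit (0.99) after a further quantile normalization. At the low end, OV7 read 5.69 and 6.25 and COLO720E 6.67 and 6.81, with differences of -2.27 (adjusted p = 2.02e-16) and -1.47 (adjusted p = 7.37e-12). The other 24 lines lay between 7.24 and 9.07 on every array.

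The neighbours of ERBB2 on chromosome 17 were examined in SKOV3, since genes of this interval are known to be amplified together in some carcinomas. ERBB2 lies at chr17:39688094-39728658 (GRCh38.p14), and 16 genes from FBXL20 (chr17:39252663-39402556) to PSMD3 (chr17:39980807-39997959) were measured around it. Of these, 3 were called higher in SKOV3, against 4.49% of all genes, namely PGAP3 (1.82, SE 0.19, adjusted p = 7.73e-09), STARD3 (1.54, SE 0.11, adjusted p = 3.64e-13) and MIEN1 (1.10, SE 0.19, adjusted p = 4.75e-05), and none was lower. PGAP3 and MIEN1 adjoin ERBB2 on either side, whereas TCAP and PNMT, which lie between STARD3 and PGAP3, were not called. PGAP3, an enzyme of GPI anchor remodelling, read 8.47 and 8.48 in SKOV3, against a highest mean of 7.97 among the other lines. STARD3, a cholesterol-binding protein of late endosomes, read 9.77 and 9.85 in SKOV3, against at most 9.13 elsewhere.

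SKOV3 also ranked first of the 28 lines for MIEN1, MED1, PPP1R1B and PSMD3, of which the last 3 did not reach 1 log2 unit (0.94, 0.72 and 0.90). PSMD3, a proteasome subunit, had an adjusted p of 7.58e-07, and MED1, a Mediator subunit, one of 0.181. ORMDL3 (0.51), GSDMB (0.52), CDK12 (0.64), FBXL20 (0.34), PNMT (0.28) and TCAP (0.24) were also above the other lines by less than 1 unit. GRB7, which encodes an adaptor that binds ERBB2 and sits next to MIEN1, went the other way. It read 6.58 and 6.44 in SKOV3, against a median of 6.82 and a highest mean of 8.41 (OVCA420) in the other lines, and SKOV3 ranked 21 of 28 (difference -0.49, SE 0.18, adjusted p = 0.0483). NEUROD2, IKZF3 and ZPBP2 differed by -0.07, -0.27 and -0.13. The median difference over the 16 neighbours was 0.51, against -0.05 over all genes. DNA copy number was not measured on these arrays.

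**Figure D2:**
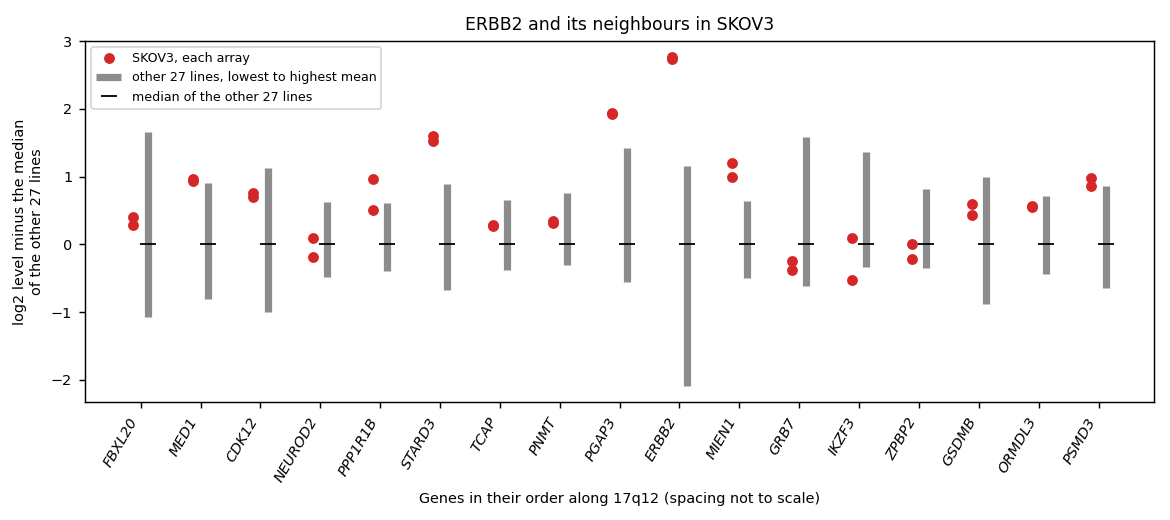
ERBB2 and 16 neighbouring genes in chromosomal order, with each of the 2 SKOV3 arrays (red points) beside the range of the other 27 line means (grey bars), all as log2 level minus the median of the other 27 lines. SKOV3 lies above the whole range for ERBB2, PGAP3, STARD3, MIEN1 and, narrowly, MED1 on both arrays, and below the median for GRB7.

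ERBB3, the neuregulin receptor that recruits PI3-kinase, was highest in PEO1 (8.89 and 8.85), JHOS4 (8.38 and 8.48) and OAW28 (8.20 and 8.35), and lowest in SKOV3 (4.76 and 4.56). These 3 lines exceeded the others by 2.40 (SE 0.18, adjusted p = 7.83e-12), 1.95 (adjusted p = 1.01e-09) and 1.78 (adjusted p = 5.19e-09). CAOV3 (7.58 and 7.65) was higher by 1.09 (adjusted p = 2.58e-05), and OVCAR3 (7.34 and 7.41) was termed high but not called. SKOV3, the line with the highest ERBB2, thus had the lowest ERBB3, with a difference of -1.97 from the others (adjusted p = 5.39e-10), a 3.91-fold lower level. HEY (5.40 and 5.39) was lower too (difference -1.20, adjusted p = 8.20e-06). The call in FUOV1 (-1.11) rested on 1 array that read 4.76 beside 6.20 on the other, and without it the difference was -0.40 (adjusted p = 0.201).

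ERBB4, a receptor for neuregulins and for some ligands of EGFR, had the largest SD over lines in the family with all arrays, at 1.70, followed by EREG at 1.55. EREG had the wider range (5.88, against 5.63 for ERBB4), and without the compressed arrays both lay at percentile 99.1 of all genes. FUOV1 read 10.21 and 10.30, OV17R 9.31 and 9.53, and OVCA432 9.0 and 8.90. OVCAR3 (8.71 and 8.46), OAW42 (8.31 and 8.35) and EFO21 (8.34 and 8.19) came next. JHOS4, COLO720E and TOV112D lay between 7.19 and 7.70, and JHOS3 at 6.41 and 6.62 completed the 10 lines termed high.

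No line was termed low for ERBB4, because its median of 5.40 was close to the low end, where DOV13 read 4.65 and 4.59. The 9 lines called higher ranged from 1.09 in TOV112D to 4.15 in FUOV1 (SE 0.17, adjusted p = 7.96e-19), a 17.7-fold higher level. The 13 lines called lower ranged only from -1.69 to -1.01, and the 13 lines with the lowest means, from TYKNU down, read between 4.49 and 5.34 on every array. For ERBB4, 8 of the 27 gaps between neighbouring lines exceeded the SD between arrays of 0.23. The corresponding count for EGFR is not comparable, because the compressed arrays widened its SD between arrays (0.58 with them and 0.18 without).

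**Figure D3:**
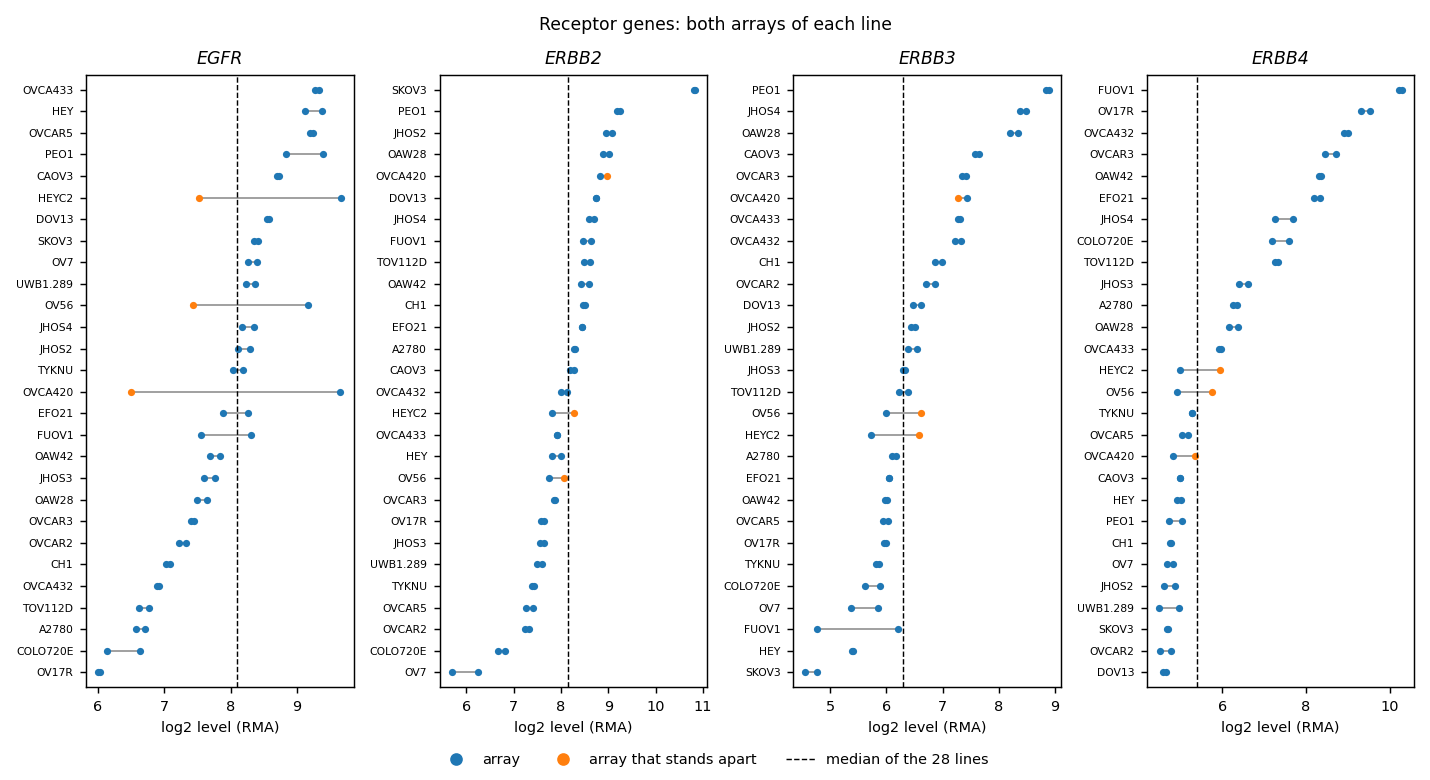
Log2 levels of EGFR, ERBB2, ERBB3 and ERBB4 on both arrays of each of the 28 lines, joined by a grey line and sorted by the line mean, with the median of the 28 lines dashed. The 3 compressed arrays (orange) lie far from their partners for EGFR, SKOV3 stands alone at the top for ERBB2, and FUOV1 leads a graded series of 10 lines for ERBB4.

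The receptor genes were high in few combinations. With both arrays required, 17 of the 28 lines were high for at least 1 receptor and 3 for at least 2 receptors. EGFR alone was high in OVCA433, OVCAR5 and HEY, ERBB2 alone in SKOV3, ERBB3 alone in CAOV3 and OAW28, and ERBB4 alone in 8 lines (FUOV1, OV17R, OVCA432, OAW42, EFO21, COLO720E, TOV112D and JHOS3). ERBB3 and ERBB4 were both high in JHOS4 and OVCAR3, and ERBB2 and ERBB3 in PEO1. PEO1 was also called higher for EGFR, but was not termed high because its second array (8.84) fell short. EGFR was high in only 3 of the 28 lines and ERBB4 in 10, so an absence of shared lines can arise without a link. Overlaps between them were not tested. No line was high for both EGFR and ERBB4, whereas 4 of the 6 lines low for EGFR (OV17R, OVCA432, COLO720E and TOV112D) were high for ERBB4. The exceptions were A2780, which read 6.25 and 6.36 for ERBB4, and CH1, which read 4.77 and 4.76. Without the 3 compressed arrays the counts were 20 lines high for a receptor, 4 high for at least 2, and none high for both EGFR and ERBB4, with 5 lines low for EGFR and high for ERBB4, A2780 being the added one. The remaining arrays of HEYC2, OV56 and OVCA420 were then each high for EGFR, and that of OVCA420 for ERBB3 as well, while HEY was no longer termed high for EGFR against the shifted median.

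Of the ligands, TGFA, a classical EGFR ligand of epithelial cells, was highest in DOV13 (9.58 and 9.67) and PEO1 (9.45 and 9.31). OVCA433 (8.84 and 8.75), JHOS2 (8.90 and 8.65), UWB1.289 (8.64 and 8.72) and OVCAR5 (8.35 and 8.60) completed the 6 lines termed high. OAW42 read 4.72 and 4.35, the lowest of all, and OVCA432 5.50 and 5.38. DOV13 exceeded the other lines by 2.70 (SE 0.31, adjusted p = 4.70e-08), and the difference in OAW42 was -2.58 (adjusted p = 9.04e-08). Altogether TGFA was called higher in 7 lines and lower in 9. The call in OV56 (1.05) rested on its uncompressed array, the difference being 1.90 without the compressed array and 0.20 without the other.

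HBEGF, which binds EGFR and ERBB4 and is also the receptor of diphtheria toxin, was highest in TYKNU (10.35 and 10.37), OVCAR5 (9.96 and 10.39) and OVCA433 (9.94 and 9.86), followed by JHOS2 (9.50 and 9.40). It was lowest in OAW28 (5.78 and 6.03), OAW42 (6.19 and 6.22) and A2780 (6.47 and 6.47). The differences from the other lines were 2.38 in TYKNU (SE 0.26, adjusted p = 1.43e-08) and -2.24 in OAW28 (adjusted p = 5.76e-08), and HBEGF was called higher in 5 lines and lower in 6. TYKNU also had the highest level of 4 of the 5 endothelial markers, PECAM1 (9.79, against a median of 4.78 over the 28 lines), CDH5 (9.28, median 5.63), KDR (8.06, median 4.85) and TEK (7.87, median 4.29), but not of VWF. The part of this profile in the HBEGF level was not tested.

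EREG, or epiregulin, lay near its low end in most lines and was high in a few. OV56 read 12.01 and 9.25, OVCAR5 9.40 and 9.62, OVCAR2 9.03 and 8.96, and EFO21 9.35 and 8.26. PEO1 (7.67 and 7.69) and OV17R (6.96 and 6.72) were also termed high, around a median of 5.63, and OVCA433 was lowest (4.90 and 4.60). OV56 exceeded the other lines by 4.49 (SE 0.41, adjusted p = 8.26e-10), a 22.4-fold higher level. The lower of its arrays was the compressed one, and the difference was 5.87 without it and 3.11 without the other. OVCAR5, OVCAR2 and EFO21 exceeded the others by 3.33, 2.79 and 2.60 (adjusted p = 1.85e-07, 3.49e-06 and 1.64e-05). The arrays of a line were more than 1 unit apart in 5 lines for EREG, OV7 (6.31 and 8.08) and FUOV1 (5.07 and 6.24) among them. OVCA420 read 6.50 on its compressed array and 8.77 on the other, and its call (1.38) was lost without that other array (0.24, adjusted p = 0.659).

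EGF itself varied less, with a median of 5.13. It was highest in COLO720E (7.43 and 7.42), and EFO21 (6.18 and 7.04), OAW42 (6.45 and 6.52) and CH1 (6.45 and 6.30) were also termed high. COLO720E exceeded the other lines by 2.23 (SE 0.26, adjusted p = 4.60e-08), and with all arrays none of these 4 lines was high for EGFR. OVCA420 read 5.92 on its compressed array and 8.03 on the other, so that without the compressed array it had the highest EGF of the panel and was high for both EGF and EGFR. BTC, or betacellulin, was highest in OVCAR3 (6.89 and 6.90), the one line called (1.27, SE 0.14, adjusted p = 1.13e-08), and in the other 27 lines it lay between 4.95 and 6.71 on every array.

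NRG1, the neuregulin that binds ERBB3 and ERBB4, was highest in TOV112D (8.63 and 8.83), JHOS4 (8.36 and 8.01), EFO21 (8.18 and 8.03) and DOV13 (8.03 and 7.80). It was lowest in OVCAR5 (4.77 and 4.85), OVCAR2 (4.62 and 5.08) and FUOV1 (4.89 and 4.81). The differences were 2.40 in TOV112D (SE 0.25, adjusted p = 6.15e-09), 1.83 in JHOS4 (adjusted p = 1.10e-06) and -1.67 in OVCAR5 (adjusted p = 4.91e-06), and NRG1 was called higher in 6 lines and lower in 9. A second NRG1 probe set gave the same picture (r = 0.964 over the 28 lines), with EFO21 in place of TOV112D as its highest line (8.97).

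**Figure D4:**
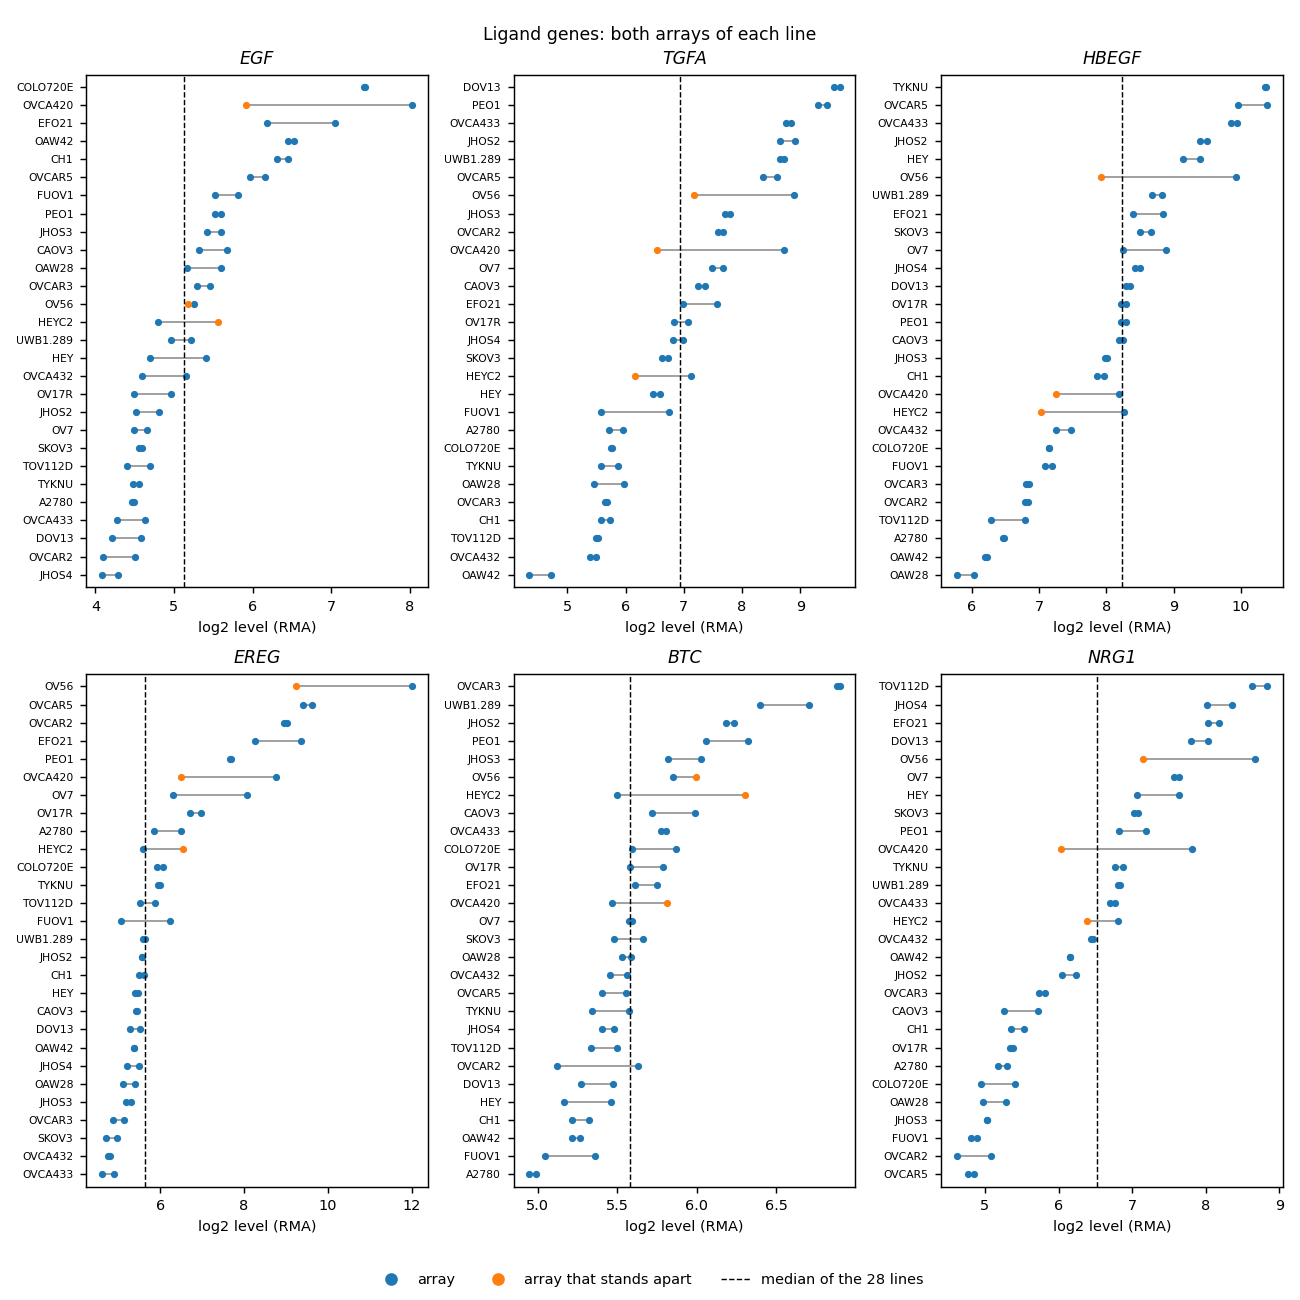
Log2 levels of EGF, TGFA, HBEGF, EREG, BTC and NRG1 on both arrays of each of the 28 lines, drawn as for the receptors. TGFA, HBEGF and NRG1 form graded series, EREG is far above its median in a few lines such as OV56 and OVCAR5, and BTC spans less than the others.

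At least 1 ligand was high in 18 of the 28 lines, with or without the 3 compressed arrays. The combinations differed from line to line. OVCAR5 was high for TGFA, HBEGF and EREG together with EGFR, and low for NRG1. OVCA433 was high for TGFA and HBEGF together with EGFR, and JHOS2 for the same ligands with no receptor high. PEO1 combined TGFA and EREG with ERBB2 and ERBB3, and EFO21 combined EGF, EREG and NRG1 with ERBB4. EGFR was called higher in PEO1 too (difference 1.23), though only 1 of its arrays met the criterion for high. Among the 13 lines high for ERBB3 or ERBB4, 3 were also high for their ligand NRG1 (JHOS4, EFO21 and TOV112D), and 4 of the 10 lines high for ERBB4 were low for it. Without the compressed arrays these counts were 4 of 15, with OVCA420 added, and 5 of 11. COLO720E had the most genes at the low end, being low for EGFR, ERBB2, TGFA, HBEGF and NRG1 while high for ERBB4 and EGF. A2780 was high for none of the 10 genes and low for EGFR, HBEGF and NRG1. Without the compressed arrays it was high for ERBB4 and low for TGFA as well. The remaining array of OVCA420 was then high for EGFR, ERBB3, EGF, TGFA, EREG and NRG1, and that of OV56 for EGFR, TGFA, HBEGF, EREG and NRG1, which were the longest combinations of high genes in the panel. Each of them rests on 1 array, a looser criterion than for lines that had to pass on both arrays, so the lengths are not strictly comparable. TGFA was termed high in 8 lines and low in 9 without the compressed arrays, against 6 and 7 with all arrays, and NRG1 in 6 and 9, against 5 and 8.

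Across the 28 line means, EGFR, TGFA and HBEGF varied together and ERBB4 varied in the opposite direction. These correlations are given as a description without a test, because the lines share the array platform, the normalization and in part the medium. Pearson's r was 0.62 between EGFR and HBEGF, 0.59 between EGFR and TGFA and 0.57 between TGFA and HBEGF (Spearman's rho 0.65, 0.60 and 0.58). ERBB4 had r = -0.52 with EGFR, -0.53 with TGFA and -0.43 with HBEGF. Of the 45 pairs within the family, 3 had r above 0.5 and 2 below -0.5, and 36 were under 0.3 in size. Of all other genes, 2.06% had r above 0.5 with EGFR and 1.82% had r below -0.5 with ERBB4.

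The signs of these correlations did not rest on the compressed arrays. Without them r was 0.61, 0.62 and 0.59 among EGFR, HBEGF and TGFA (in the order above), and -0.56, -0.56 and -0.46 between ERBB4 and EGFR, TGFA and HBEGF. With each line left out in turn, r ranged from 0.58 to 0.70 for EGFR and HBEGF, from 0.55 to 0.64 for EGFR and TGFA, and from -0.59 to -0.44 for EGFR and ERBB4. Within DMEM, RPMI and DMEM/F12 the value for EGFR and ERBB4 was -0.47, -0.51 and -0.59, and that for EGFR and HBEGF was 0.57, 0.83 and 0.26. None of the 10 lines high for ERBB4 was high for TGFA, and 5 were low for it, against 0 and 6 of 11 without the compressed arrays. ERBB2 and ERBB3 did not follow EGFR (r = 0.15 and 0.10).

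**Figure D5:**
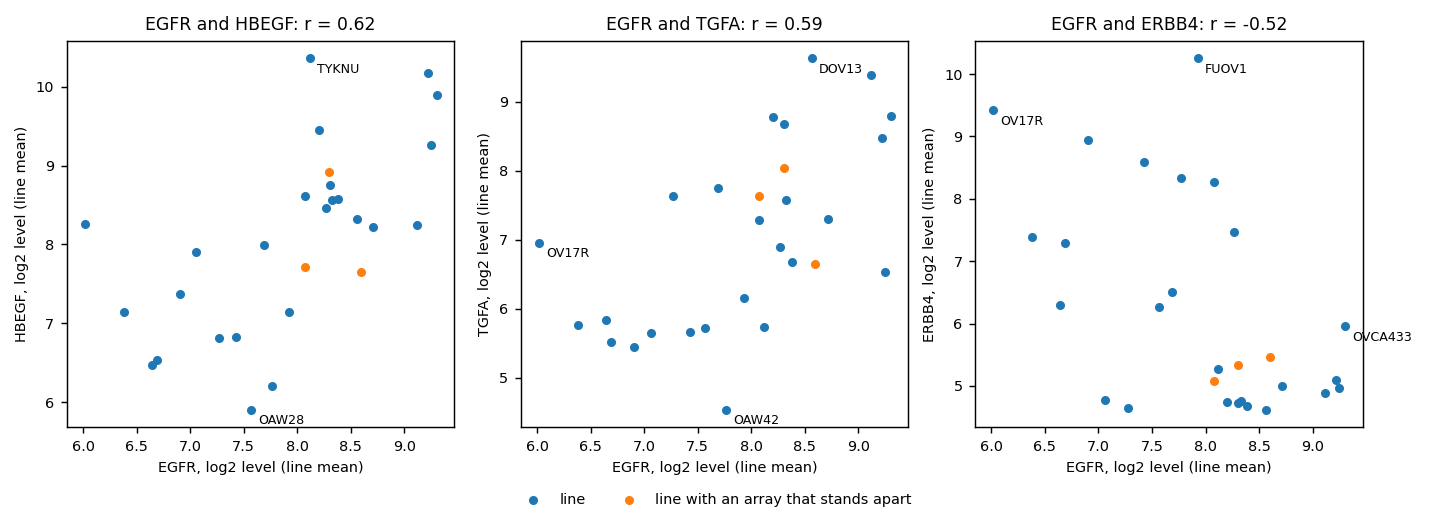
Line means of HBEGF, TGFA and ERBB4 (vertical axes, log2) against EGFR (horizontal axes, log2) for the 28 lines, with lines that hold a compressed array in orange. HBEGF and TGFA are higher in lines with more EGFR (r = 0.62 and 0.59), and the lines with the highest ERBB4 lie at middle or low EGFR (r = -0.52).

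Since EGFR, TGFA and HBEGF varied together, the promoter sequences of these genes are shown, as RefSeq gives them for GRCh38.p14 (windows of 300 bases around a start site, 5′ to 3′ on the gene's strand). The EGFR window is that of a second start site inside the gene (plus strand, chr7:55109589-55109888). The TGFA window is that of the inner of its 2 start sites, also inside the gene (minus strand, chr2:70553397-70553696). The HBEGF window is that of its listed start (minus strand, chr5:140346554-140346853). For EGFR and TGFA the window shown is the one that held a motif. Capitals mark TGAGTCA, the motif of AP-1 factors such as FOSL1, and CAGGTG, an E-box that SNAI and ZEB repressors bind, both searched on both strands (TGACTCA and CACCTG are their reverse complements).
EGFR: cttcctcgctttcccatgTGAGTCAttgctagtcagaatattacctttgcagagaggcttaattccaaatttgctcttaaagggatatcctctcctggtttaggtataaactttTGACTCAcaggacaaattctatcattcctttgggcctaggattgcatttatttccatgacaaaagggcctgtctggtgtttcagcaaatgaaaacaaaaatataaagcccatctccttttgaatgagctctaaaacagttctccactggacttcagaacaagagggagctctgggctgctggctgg
TGFA: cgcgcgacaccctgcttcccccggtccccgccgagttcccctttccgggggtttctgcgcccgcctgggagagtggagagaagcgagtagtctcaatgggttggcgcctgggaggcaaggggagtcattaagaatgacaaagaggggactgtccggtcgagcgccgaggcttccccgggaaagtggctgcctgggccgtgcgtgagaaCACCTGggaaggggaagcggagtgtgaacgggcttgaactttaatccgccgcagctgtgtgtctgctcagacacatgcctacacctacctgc
HBEGF: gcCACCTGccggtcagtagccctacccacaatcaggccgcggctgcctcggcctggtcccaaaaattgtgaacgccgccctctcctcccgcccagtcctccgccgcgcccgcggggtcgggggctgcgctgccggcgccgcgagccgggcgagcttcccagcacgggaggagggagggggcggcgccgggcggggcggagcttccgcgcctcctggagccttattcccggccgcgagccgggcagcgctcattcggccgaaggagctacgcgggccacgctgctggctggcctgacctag
The EGFR window held TGAGTCA at 2 places, a motif found in 4.95% of the 35116 promoter windows of the annotation, and the TGFA and HBEGF windows each held 1 CAGGTG, found in 20.6%. The windows of EREG and BTC also held 1 CAGGTG, and that of EGF held 1 TGAGTCA. Neither motif was in the windows of ERBB2, of ERBB4 (chr2:212538753-212539052), of the first start site of EGFR (chr7:55018767-55019066) or of the outer TGFA start, at the 5′ end of the gene (chr2:70553777-70554076). AACCGGTT, the motif of Grainyhead factors, occurred in 0.134% of windows and in none of those searched here. ERBB3 and NRG1 were not searched. The shares are for single windows and motifs, so they are no background for a window picked because it held a motif. The EGFR windows had no searched motif in common with those of TGFA and HBEGF.

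The study ordered its lines by an epithelial to mesenchymal (EMT) score, and the level of each gene was set against a score rebuilt from these arrays. The score is the signed Kolmogorov-Smirnov distance between 200 mesenchymal and 182 epithelial genes of its signature, and it ranged from -0.82 in PEO1, the most epithelial line, to 0.73 in TOV112D. The arrays of a line differed most in score in HEYC2 (SD 0.64), FUOV1 (0.51), OV7 (0.46) and OV56 (0.30). Along the score, 166 of all genes fell (0.903%) and 35 rose (0.19%) at an adjusted p under 0.05 in limma. In the family, ERBB3 fell, with a slope of -1.47 on the log2 scale (SE 0.29, adjusted p = 0.00489, rho = -0.70). ERBB3 and TGFA belong to the signature, and the slope of ERBB3 was again -1.47 with the 10 genes left out of the score. The study chose signature genes for differing between epithelial and mesenchymal ovarian cancer lines, with ERBB3 among the epithelial genes. A fall of ERBB3 thus follows from that choice, which leaving it out of the score does not undo. Within a medium, the rho of ERBB3 was -0.73 (DMEM), -0.62 (RPMI) and -0.82 (DMEM/F12).

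The other 9 genes did not pass the test along the score. TGFA had a slope of -1.53 (SE 0.47, adjusted p = 0.133, rho = -0.52), BTC one of -0.47 (SE 0.15, adjusted p = 0.152, rho = -0.52) and EGFR one of -0.84 (SE 0.33, adjusted p = 0.326, rho = -0.38). Within DMEM, RPMI and DMEM/F12 the rho was -0.58, -0.40 and -0.43 for TGFA and -0.68, -0.80 and -0.43 for BTC, negative in each medium, and the corresponding values for EGFR were -0.47, -0.30 and -0.14. For ERBB2, ERBB4, EGF, HBEGF, EREG and NRG1 the slopes lay between -0.39 and 0.21, with adjusted p from 0.870 to 0.992. The lines high for ERBB4 stood along the whole score, from JHOS4 at -0.53 to TOV112D at 0.73. ERBB2 was highest in PEO1 and SKOV3 among lines on opposite sides of the score (-0.82 and 0.54).

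No gene passed a test between base media. Across 26 lines in DMEM, RPMI and DMEM/F12, 0 of the 18377 genes (0%) passed the limma F-test, with 350 genes at an unadjusted p under 0.05 and a smallest adjusted p of 0.733. Among the 10 genes EREG had the largest F, with means of 5.50 ± 0.84 in DMEM (SD, n = 10), 7.07 ± 1.70 in RPMI (n = 9) and 6.64 ± 1.91 in DMEM/F12 (n = 7), and an adjusted p of 1.00 (limma).

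The genes whose levels followed each receptor most closely over the 28 lines differed in kind. For ERBB3 these were MYO5B (r = 0.90), RAB25 (0.89), SPINT1 (0.86), GRHL2 (0.85) and STARD10 (0.83), among which RAB25 and MYO5B act in the recycling of membrane vesicles, SPINT1 inhibits proteases of the epithelial surface and GRHL2 is a transcription factor of epithelia. For ERBB4 they were BMP7 (0.85), a ligand of the TGF-β family, KHDC4 (0.77), the RNA-binding protein gene MSI2 (0.76), APLP1 (0.74) and the chromatin remodeller gene CHD6 (0.74). For ERBB2 they were ADCY6 (0.71), WTIP (0.68), PCDHB8 (0.65), the neighbour STARD3 (0.65) and TESK1 (0.64). Without SKOV3 the r of STARD3 with ERBB2 was 0.44.

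For EGFR the leading genes depended on the compressed arrays. With all arrays they were 5 metallothionein genes and pseudogenes, MT1HL1 (0.78), MT4 (0.78), MT1DP (0.76), MT1JP (0.76) and MT1IP (0.75), close copies of each other whose probes may share signal. Without the compressed arrays these held places 13 to 38, and the first 5 were LAMB3 (0.81), a laminin chain, RPS6KA4 (0.79), a kinase downstream of ERK, PLEK2 (0.79), SFN (0.78), the epithelial 14-3-3 protein, and SP100 (0.76). With all arrays those 5 had r between 0.69 and 0.75.

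Of the ligands, TGFA was followed by ITGA3 (0.80), an integrin of epithelial cells, KRT80 (0.79), UCA1 (0.77), PMEPA1 (0.77) and MST1R (0.76), a receptor tyrosine kinase. HBEGF was followed by TGM2 (0.81), DRAP1 (0.80), GLIPR1 (0.79), SH3TC2 (0.79) and CAV1 (0.79), the caveolin of plasma membrane pits. EREG was followed by MB (0.74), TM4SF4 (0.72), the chemokine gene CCL20 (0.71), NOSTRIN (0.70) and ZG16B (0.70), of which ZG16B fell to place 60 without the compressed arrays. BTC was followed by MUC16 (0.73), which encodes the tumour marker CA125, SIM1 (0.71), MKX (0.68), RBP7 (0.68) and RAB19 (0.66). EGF was followed by DOCK8 (0.80), PGBD5 (0.72), ADAM18 (0.70), HOGA1 (0.70) and SLC24A5 (0.67), of which ADAM18 had r = 0.40 without the compressed arrays. NRG1 had the weakest followers, with DGKH (0.68), HOXB4 (0.64), SIRPA (0.63), DUSP14 (0.62) and HOXB2 (0.60), of which HOXB4 fell to place 44 (r = 0.53) and HOXB2 to place 25 without the compressed arrays.

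Genes that act with the family were described by list, against the background given above of 65.7% of all genes that differed between lines, 0.903% that fell along the score and 0.19% that rose. Of 4 other ERBB ligands measured (EPGN, NRG2, NRG3 and NRG4), all differed between lines and none passed the test along the score, and NRG4 was highest in PEO1 (6.86, median 4.21). Of 10 sheddases and their regulators, 9 differed between lines and none passed along the score. ADAM17, the main protease that releases TGFA, did not pass between lines (limma F-test, adjusted p = 0.415, 7.96 to 9.98). Its lowest level was in HEYC2, a line with a compressed array. The ADAM17 test without the compressed arrays is not given, so even levels across lines cannot be read from this result. RHBDF2, which carries ADAM17 to the surface, ranged from 5.87 to 7.62, and ADAM15 from 7.57 to 9.53. Of 14 adaptors and effectors, 11 differed between lines and PLCG1, a phospholipase recruited by EGFR, rose along the score (slope 0.59, SE 0.15, adjusted p = 0.0364). GRB7 (slope -0.79, adjusted p = 0.0583) and PIK3R1 (0.56, adjusted p = 0.627) did not pass.

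Of 15 inhibitors and feedback genes, all differed between lines and none passed along the score. LRIG1, which lowers the amount of ERBB receptors, ranged from 5.58 in TYKNU to 11.12 in OVCA432, SPRY4 from 5.36 in COLO720E to 9.75 in JHOS4, and DUSP4, an ERK phosphatase, from 4.81 in OVCA432 to 9.58 in DOV13. Of 11 genes known to respond to ERK, all differed between lines and none passed along the score. IER3 (7.28 to 10.90) and CCND1 (7.28 to 11.51) were both lowest in COLO720E, and EPHA4 (5.41 to 8.90) was highest in OV7. The median r of this list with EGFR was 0.37, against 0.01 over all genes, and 2 of the 11 had r above 0.5, FOSL1 (0.64) and PLAUR (0.62), against 2.06% of all genes. EGR1 (-0.33), EPHA4 (-0.09) and ETV4 (-0.05) of the same list had negative r with EGFR. The median r with EGFR was -0.11 over the inhibitors and feedback genes, of which DUSP4 (0.60) lay above 0.5 and CBLB (-0.52), a ubiquitin ligase that marks EGFR for degradation, below -0.5. It was 0.06 over the adaptors and effectors, 0.27 over the sheddases and 0.04 over the other ligands. FOSL1, PLAUR, EGR1, ETV4, CBLB and the genes CD44, AXL and MET below were named after their values were seen.

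Of 8 membrane partners of the receptors, all differed between lines (65.7% of all genes) and 2 fell along the score (0.903% of all genes), CDH1 (slope -2.60, SE 0.46, adjusted p = 0.00260) and ITGB4 (-1.98, SE 0.47, adjusted p = 0.0287), whereas MUC4 (-0.76, adjusted p = 0.254) did not pass. The study names CDH1 as a gene of its signature, so the fall of CDH1, and with it the count of 2, is not independent of the score. CDH1, or E-cadherin, had r = 0.81 with ERBB3 and was lowest in SKOV3 (3.88) and highest in PEO1 (11.69), the same end lines as for ERBB3. The median r of this list with EGFR was 0.44, and 4 of its 8 genes had r above 0.5, against 2.06% of all genes, namely AXL (0.74), CD44 (0.69), MET (0.57) and MUC4 (0.53), the last of which was 0.38 without the compressed arrays. AXL and CD44, a receptor tyrosine kinase and a hyaluronan receptor that can present HBEGF, also had r = -0.75 and -0.78 with ERBB4, and PLAUR and DUSP4 -0.67 and -0.64. AXL was highest in OVCAR5 (11.66) and lowest in OAW42 (6.20), and CD44 was highest in OV7 (11.91) and lowest in OVCAR3 (5.37).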

How the data were processed

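Total RNA of 28 ovarian cancer cell lines was amplified, biotin-labelled and hybridised to Affymetrix Human Gene ST arrays, 2 per line. The authors deposited log2 values per probe set, made with RMA (background correction, quantile normalization and probe summary) in affy 1.42.3; which arrays were normalized together is not given in the sources used here. Of 28869 probe sets, 19310 had 1 gene in the platform annotation (19279 matched by gene ID to current RefSeq symbols, GRCh38.p14), 1752 had several and 7807 had none listed, and probe sets with several or none were left out. For each gene the probe set of highest mean level was used, which gave 18377 genes (685 with several probe sets). All columns were assigned to a line, and 0 were left unused. The second JHOS4 array is spelled JHSO4 in its labels, and the replicate numbers of JHOS4 differ between its title and its description, so only the mean over its arrays has a settled identity.

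Lines were compared in limma 3.58.1 (lmFit, eBayes with trend and robust, R 4.3.3, statmod 1.5.0), with an F-test over lines, a contrast of each line against the mean of the other 27, a slope of the line mean on the EMT score and an F-test over 3 base media, and p-values were adjusted over all genes by Benjamini-Hochberg (threshold 0.05, and 1 log2 unit for contrasts). The contrast of a line against the others and the slope on the EMT score were tested on simulated data, and the F-tests were not. The EMT score used 420 signature gene names. They came from the study's list of signature genes with counts of methylation sites correlated with EMT, and were taken whatever the counts. This list is shorter than the full signature, which was not used here. Correlations are Pearson's r and Spearman's rho over line means (scipy 1.17.1 and numpy 2.4.6 under Python 3.11.15). Precision is limited by having 2 arrays per line.

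The members, gene lists and tests were chosen with earlier results of these data known. The text names the 10 members, up to 3 genes per pathway list with the largest moderated t along the score, the 5 genes with the highest r for each member and all measured neighbours of ERBB2. Some genes of the lists were not analysed here. Alternatives were a replicate block, each array or line left out, the 3 compressed arrays left out, a filter on low values, the mean over probe sets, a further quantile normalization, eBayes without trend, HEY and HEYC2 merged, other forms of the score, base medium or score as a covariate, and Spearman's rho with permutations.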

Additional observations from a re-analysis of the deposited data

Results flagged for a closer look

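Within lines of the same base medium, 5 values lay apart from the rest by Dixon's test, out of 30 groups of 7 to 10 lines tested, of which chance flags about 1 in 20. EGFR in OV17R (6.01) lay below the nearest of the other DMEM/F12 lines (7.69). ERBB2 in SKOV3 (10.81) lay above the nearest DMEM line (8.95). ERBB3 in JHOS4 (8.43) lay above the nearest DMEM/F12 line (6.47). EREG in OVCA420 (7.63, where the compressed array read 6.50 and the other 8.77) lay above the nearest DMEM line (5.96), and EREG in OV56 (10.63) above the nearest DMEM/F12 line (7.20). The slope along the EMT score did not pass a test of difference between media for any of the 10 genes (limma interaction, adjusted p = 1.00 for each).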

How the results depend on the processing

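The count of gene and line pairs called within the family was 98 to 118 over 63 alternatives (101 as reported, 98 to 109 with 1 array left out), and that of genes differing between lines 10327 to 16620 (12069 as reported, 11694 to 16620 with 1 array left out). A replicate block gave 101 pairs and 11917 genes. Replicate numbers did not pair the arrays (correlation of deviations between lines, median -0.000247, range -0.887 to 0.871, over 0.1 in 91 of 378 pairs of lines).

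The count of genes along the EMT score (201) was 132 with base medium as a covariate, 82 without PEO1 and TOV112D, 278 without the 3 compressed arrays, and 115 (without PEO1) to 216 with 1 line left out. ERBB3 passed throughout, with slopes of -2.97 to -0.90 and adjusted p of 0.000587 to 0.0322 (limma). These slopes are per unit of the score used, and forms of the score differ in scale, so their sizes are not comparable between forms. The cause of the shifts in the count of genes was not tested. For base media the count was 1 without replicate 1 and 0 otherwise.

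Slopes near 0, none past the threshold, changed sign. EGF (-0.11) was 0.031 without PEO1 and TOV112D and ranged from -0.38 to 0.095 with an array set or a line left out. ERBB4 (0.11) was -0.041 with medium as a covariate, -0.28 without PEO1 and TOV112D and -0.017 without the compressed arrays, and ranged from -0.13 to 0.29 with an array set or a line left out. EREG (0.21) was -0.017 with medium as a covariate, -0.090 for a score of mean differences and -0.053 from uncentred values, and ranged from -0.036 to 0.48 with an array set or a line left out. Of the 101 called pairs, 33 lost their call in at least 1 alternative, 27 of them only where an array of their own line was left out. EREG in PEO1, SKOV3 and OVCA433 lost it with 1 or the other of their arrays left out, EGFR in 7 of its 8 lines without 1 array, HBEGF in HEY without replicate 1, and HBEGF and ERBB3 (-0.84) in HEY with HEY and HEYC2 merged. The calls lost in the most alternatives were EGF in OVCAR2 (8), NRG1 in CH1 (6) and ERBB4 in TYKNU (4). The number of arrays limits what can be called: with 2 per line, 1 array decided the calls in FUOV1 (ERBB3), OV56 (TGFA, NRG1) and OVCA420 (EGF, EREG, ERBB4).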
